A study of Mus musculus with 192 samples.

Results

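The 4 genes described here, Mef2c, Zbtb18, Fezf2 and Nfix, encode DNA-binding transcription factors of the cerebral cortex, and their RNA was followed over a grid of mouse brain samples. They were found as the rows of the deposited table whose platform annotation gave one of these symbols. That rule found 5 of 20847 rows, 2 of them for Nfix and 1 for each other gene, which became 4 of 15608 genes after rows of one gene were averaged. Each array compared RNA of 1 voxel, a small cube of brain, with RNA of whole brain as the control. All samples were from C57BL/6 male mice of postnatal day 56, with no genetic change or treatment named for any of them, and the labels describe the voxel RNA as pooled without saying how many animals a pool held. A dye-coupling protocol in the labels names a lithium chloride treatment, but no sample label does. There were 192 arrays at 68 grid positions, from 3 independently harvested datasets of 59, 68 and 65 arrays, and 56 positions were measured in every dataset. Per the labels, voxel RNA carried Cy3 in datasets 1 and 3 and Cy5 in dataset 2, so dye and dataset cannot be told apart.

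The grid has rows A to G and columns 1 to 11, and the labels give no anatomical direction for either. The positions were divided into 4 zones: rows F-G (17 positions, 48 arrays), the lateral columns 1-2 and 10-11 of rows A-E (16 positions, 46 arrays), the middle columns 3-9 of rows A-B (14 positions, 37 arrays), and the core, columns 3-9 of rows C-E (21 positions, 61 arrays). Values are log2 ratios. The authors' table has each row centred on its own median over the arrays, so a value compares a position with the other positions and says nothing of the level against whole brain. The sources do not state which channel is the numerator. Voxel over whole brain is the likely reading, since whole brain is called the control, and a positive value is read here as more voxel RNA. If the ratios ran the other way, every sign below would be turned. In dataset 2, 0.219% of pairs of arrays correlated below -0.3, with a lowest r of -0.46. No pair did so in datasets 1 and 3 (lowest r of -0.17 and -0.22), and the cause was not tested. In tissue samples, fewer cells of a type and less RNA per cell cannot be told apart.

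Background on the genes follows from work on the developing and adult mouse cortex. Zbtb18, also called RP58, is a zinc finger repressor that binds an E-box and is needed for cortical neurons to leave the progenitor state and migrate. Fezf2 is a zinc finger factor that directs deep-layer neurons to become subcerebral projection neurons. Nfix belongs to the nuclear factor I family, which acts in neural progenitors and in the hippocampus. Mef2c is a MADS-box factor that responds to neuronal activity and shapes synapse number in excitatory cortical neurons.

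The upstream sequences are shown because one of the genes, Zbtb18, encodes a factor with a known recognition core. Whether any of the 4 genes acts on another was not tested. RefSeq promoter windows of 250 bases before each listed start were searched on both strands, in build GRCm38.p6. The search was for the Zbtb18 core (CATCTG) and for a loose MEF2 pattern (CTA and TAG with any 4 bases between). It also took in the nuclear factor I core (TTGGC) and its full palindrome (TTGGC and GCCAA with 5 bases between). Mef2c had 3 listed starts, Zbtb18 had 5, Fezf2 had 1 and Nfix had 4. CATCTG was present in all 5 windows of Zbtb18, of which a neighbouring pair overlap and hold the same site. It was also present in the last window of Mef2c and in the last of Nfix. Of 32851 windows of mouse genes, 14.4% held it. The loose MEF2 pattern was found once, as CTAAAGGTAG, 121 bases before the fourth start of Zbtb18 (3.2% of all windows held it). A MEF2 box proper has only A or T between CTA and TAG, so this match is not one. TTGGC was found in 1 window of Mef2c and 2 of Nfix (41.5% of all windows), and the palindrome in none of theirs (0.0365% of all windows). In the Fezf2 window none of these letters occurred. The window before the first listed start of Zbtb18 lies at chr1:177442101-177442350 (plus strand), has 84% G and C, and holds CATCTG 129 bases before the start, shown in capitals. The window of Mef2c lies at chr13:83503784-83504033 (plus strand), has 33.6% G and C and holds no match.
Zbtb18 upstream window: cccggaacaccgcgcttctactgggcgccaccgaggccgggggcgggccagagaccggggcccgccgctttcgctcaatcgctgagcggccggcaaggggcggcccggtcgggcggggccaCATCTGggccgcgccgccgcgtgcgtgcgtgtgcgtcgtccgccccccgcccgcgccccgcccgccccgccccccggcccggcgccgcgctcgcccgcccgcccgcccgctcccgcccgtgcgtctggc
Mef2c upstream window: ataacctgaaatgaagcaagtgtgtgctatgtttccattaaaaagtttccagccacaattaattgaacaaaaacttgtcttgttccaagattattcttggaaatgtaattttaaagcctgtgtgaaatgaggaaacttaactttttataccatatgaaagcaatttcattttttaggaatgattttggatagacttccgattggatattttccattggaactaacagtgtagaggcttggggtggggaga
The windows differ in base composition, and a match describes letters, not a bound site. Zbtb18 itself spans 177442351 to 177450764 on chromosome 1 and Mef2c spans 83504017 to 83667079 on chromosome 13, so the last bases of the Mef2c window lie inside the annotated gene. Fezf2 spans 12338992 to 12346803 on chromosome 14, and Nfix spans 84704712 to 84801238 on chromosome 8. Every window of Fezf2 and Nfix, and the windows of Mef2c and Zbtb18 after the first, lie wholly inside these annotated spans. Only the first window of Zbtb18 lies wholly outside its gene, so most windows precede a listed start but not the gene.

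All 4 genes varied over the grid by more than the arrays of one position varied between datasets, in limma's moderated F test over positions with the dataset as a block. The test called 768 of 15608 genes, which is 4.92%, at an adjusted p of 0.05. The 4 genes were picked with earlier results of these data known, so this share is background only. Nfix had F = 6.90 (adjusted p = 9.8e-18), the 16th smallest p of all genes. Zbtb18 had F = 5.54 (adjusted p = 3.5e-14) and Mef2c had F = 3.43 (adjusted p = 1.8e-07). Fezf2 had the lowest of the 4 values, F = 2.38 (adjusted p = 7.7e-04). The call for Fezf2 ended without dataset 1 (adjusted p = 0.106) and without dataset 2 (adjusted p = 0.682), and that for Mef2c ended without dataset 2 (adjusted p = 0.146).

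A gene's maps in different datasets come from different brains, so their likeness describes how repeatable each map was. The mean Pearson r over the pairs of datasets, across 56 to 65 shared positions, was 0.689 for Nfix, 0.643 for Zbtb18, 0.460 for Mef2c and 0.327 for Fezf2, against a median of 0.022 over all genes. Positions of one dataset share a harvest and a dye. For Nfix the pairs of datasets gave 0.693, 0.662 and 0.712, nearly one value. For Fezf2 they gave 0.434, 0.215 and 0.334, the lowest of the 4 genes in each pair.

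**Figure D1:**
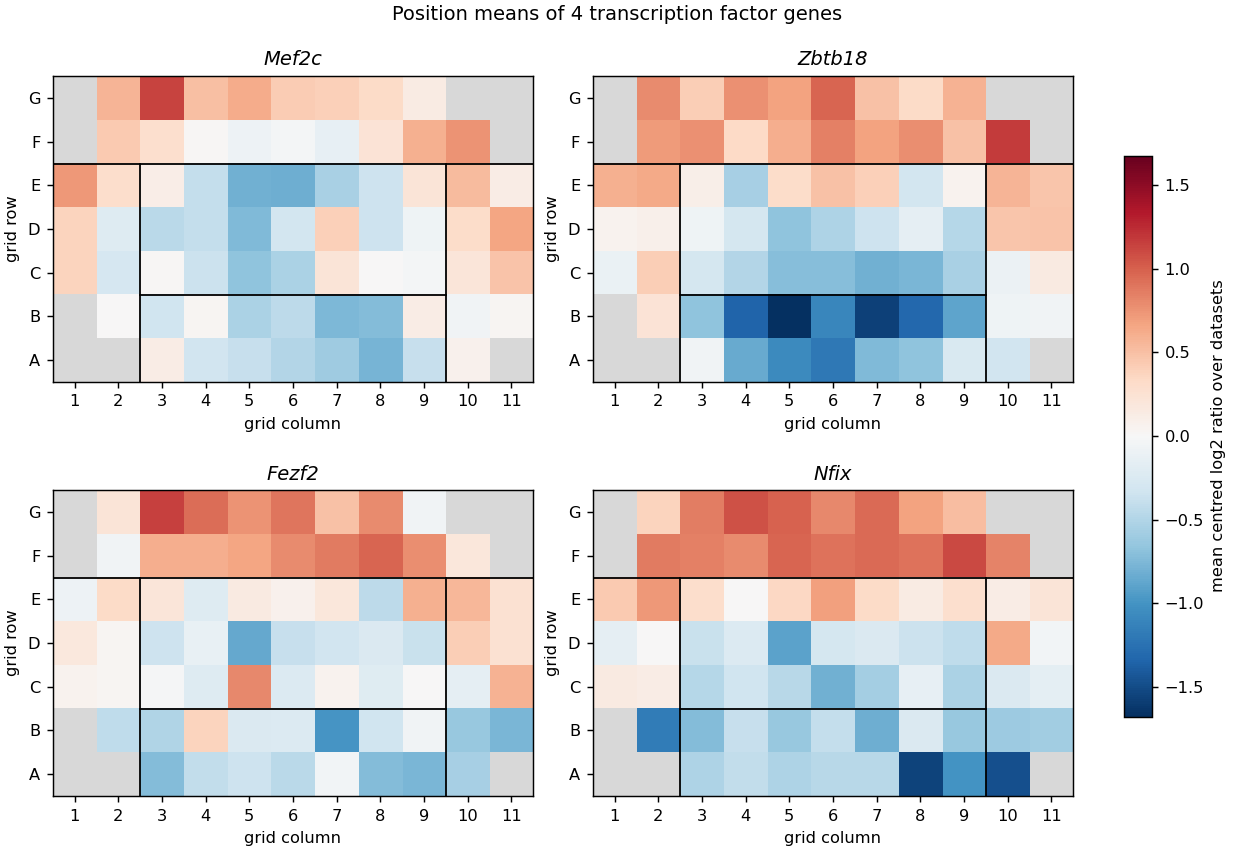
Position means of the 4 genes over the grid (grid column across, grid row down, G at the top), as mean centred log2 ratio over 2 or 3 datasets; black lines bound the 4 zones and grey cells were not measured. The top rows F and G are red for Nfix and Zbtb18 throughout (17 of 17 positions above 0). Along the sides Mef2c is above 0 at 13 of 16 lateral positions, Zbtb18 at 11, Fezf2 at 10 and Nfix at 8.

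Nfix and Zbtb18 were above 0 at all 17 positions of rows F-G, Fezf2 at 15 and Mef2c at 14. Of the 17 highest positions of each gene, rows F-G held 15 for Nfix, 13 for Zbtb18, 13 for Fezf2 and 10 for Mef2c. The lateral columns held 6 of the 17 highest for Mef2c, but 3 for Zbtb18, 2 for Fezf2 and 1 for Nfix. The 17 lowest positions included none in rows F-G for any of the 4 genes.

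The single positions show where each map peaked. Nfix peaked at F9 with 0.94, 1.01 and 1.36 in datasets 1 to 3 (1.10 ± 0.23, SD, n = 3) and at G4 with 0.79, 0.96 and 1.44. Zbtb18 peaked at F10, measured in datasets 1 and 2 only, with 1.24 and 1.11, followed by G6 with 0.93, 0.60 and 1.39. Each of those values lay above 0, so the peaks did not rest on 1 array. The highest position of Fezf2 was G3, with 0.68, 2.58 and 0.16 (1.14 ± 1.27, SD, n = 3), and that mean did rest on dataset 2. F8 followed with 0.82, 1.34 and 0.76. At C5, in the core, Fezf2 had -0.21, -0.22 and 2.84, so its mean of 0.81 came from 1 array of dataset 3. Mef2c was highest at G3 too, with 0.50, 1.88 and 0.99, then at F10 (0.71 and 0.79 in datasets 1 and 2). Next came 2 edge positions of the lateral columns, E1 with 1.19, 0.85 and 0.12 and D11 with 0.80, 0.66 and 0.51.

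The lowest positions differed between the genes. Zbtb18 was lowest at B5 (-1.70 and -1.66 in datasets 2 and 3) and B7 (-1.09, -1.82 and -1.79). Nfix was lowest at A8, with -0.59 and -2.52 in datasets 2 and 3, and A10, with -0.92 and -2.02. The arrays of dataset 3 were thus far lower than those of dataset 2 there. Fezf2 was lowest at B7, where its 3 values were spread over -2.72, -0.89 and 0.64. Mef2c was lowest in the core, at E6 (-1.29, -0.94 and -0.23) and E5 (-1.16, -0.60 and -0.65), closely followed by A8 (-0.72 and -0.83 in datasets 2 and 3). Its zone mean was nonetheless lower in the middle of rows A-B (-0.43 ± 0.23) than in the core (-0.31 ± 0.35, SD, n = 3 each).

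Rows F-G were set against the core, with 1 difference of zone means per dataset and limma across all genes. Nfix and Fezf2 were higher in rows F-G, by 1.06 ± 0.27 and 0.75 ± 0.01 on the log2 scale (SD, n = 3), while Zbtb18 (0.95 ± 0.40) and Mef2c (0.64 ± 0.29) did not pass. The comparison called 71 of 15608 genes (0.455%), 32 of them higher (0.205%) and 39 lower, and 2 of the 4 genes were among the higher ones. The members and zones were chosen with earlier results of these data known, so these counts are not independent support. The median difference over all genes was 0.01.

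Nfix values in rows F-G ran from -0.22 to 1.12 in dataset 1 (median 0.80), against -1.37 to 0.97 in the core (median -0.24). In dataset 2 they ran from 0.25 to 1.17 (median 0.96), against -0.72 to 0.89 in the core (median 0.08). In dataset 3 they ran from -0.04 to 1.44 (median 1.10), against -1.22 to 0.51 in the core (median -0.56). The ranges overlapped in each dataset, but all 48 arrays of rows F-G lay above the core median of their dataset and 22 above its highest value. The zone means were 0.86 ± 0.13 in rows F-G and -0.19 ± 0.19 in the core (SD, n = 3 each), a 2.08-fold difference with an adjusted p of 0.0273 from limma. Both rows of the table behind Nfix differed alike, by 1.07 ± 0.33 and 1.04 ± 0.23.

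Fezf2 values in rows F-G ran from -0.80 to 0.87 in dataset 1 (median 0.35), against -0.93 to 0.82 in the core (median -0.39). In dataset 2 they ran from -0.08 to 2.58 (median 0.69), against -0.44 to 1.23 in the core (median -0.04). In dataset 3 they ran from -0.09 to 1.64 (median 0.88), against -1.70 to 2.84 in the core (median -0.08). Single arrays overlapped widely, with 45 of 48 arrays of rows F-G above the core median of their dataset but only 7 above its highest value. The zone means were 0.65 ± 0.24 in rows F-G and -0.11 ± 0.24 in the core (SD, n = 3 each), and the differences within datasets, 0.75, 0.75 and 0.76, nearly coincided. This 1.68-fold difference had an adjusted p of 0.0333 in limma, whose moderated SE of 0.10 replaces the much smaller spread of those 3 values.

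For Zbtb18, 47 of 48 arrays of rows F-G lay above the core median of their dataset, and 17 above its highest value. Its zone means were 0.83, 0.49 and 0.64 in rows F-G of datasets 1 to 3, against -0.03, -0.11 and -0.74 in the core. The difference varied from 0.60 to 1.38 and had an adjusted p of 0.0761 (limma). For Mef2c, 45 of 48 arrays lay above the core median and 21 above its highest value, 13 of these in dataset 1 and none in dataset 3. Its zone means were 0.19, 0.61 and 0.22 in rows F-G, against -0.71, -0.10 and -0.11 in the core (adjusted p = 0.150, limma). The differences of 0.90, 0.71 and 0.33 shared their sign but not their size.

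**Figure D2:**
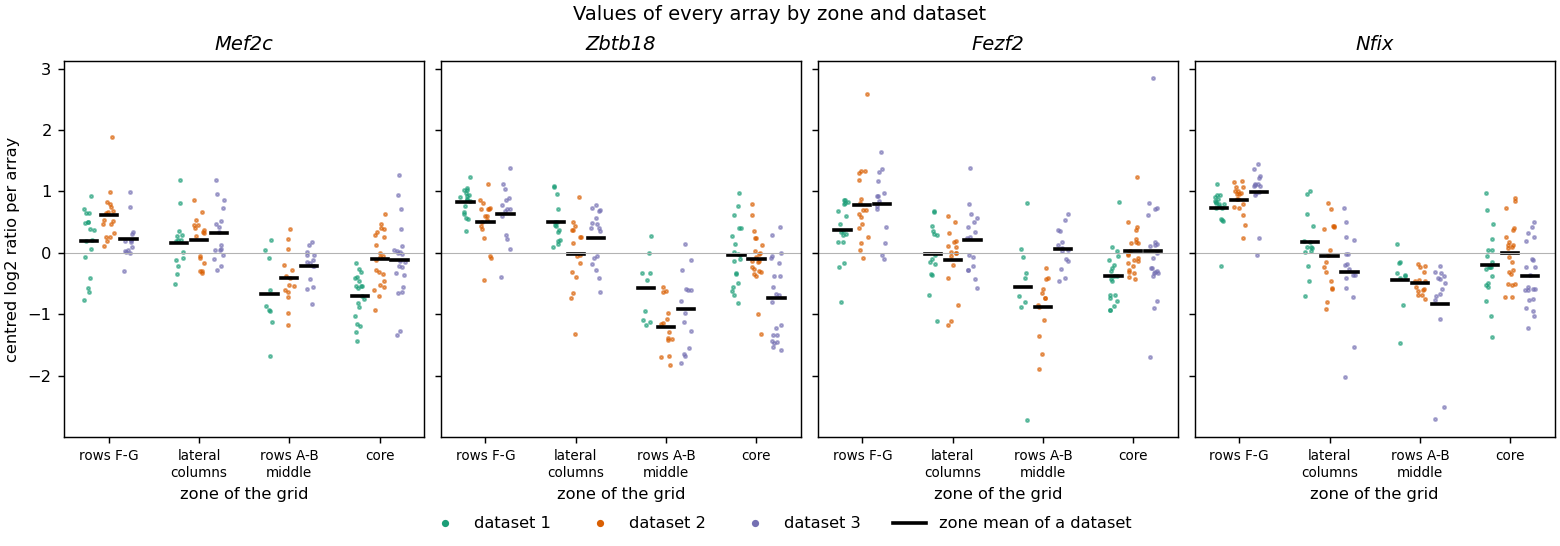
Centred log2 ratio of every array (points, coloured by dataset) in rows F-G, the lateral columns, the middle of rows A-B and the core, 1 panel per gene; black bars are zone means of a dataset. The bars of rows F-G lie above those of the core in each dataset for all 4 genes, and those of the lateral columns lie within 0.37 of the core's for Fezf2 and Nfix.

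The calls for Nfix and Fezf2 rest on 3 datasets and on a spread that limma moderates across all genes. An exact sign-flip test of 3 values cannot give a p below 0.25. Nfix kept its call without dataset 1 but lost it without dataset 2 (adjusted p = 0.219) or dataset 3 (adjusted p = 0.0562), and Fezf2 lost it without any 1 of them (adjusted p = 0.0760 to 0.310). Without pairing zones within a dataset, both calls ended (adjusted p = 0.129 for Nfix and 0.557 for Fezf2), as they did with floor values kept as measurements (adjusted p = 0.175 for both). The differences themselves stayed above 0 but varied, from 0.91 to 1.36 for Nfix and from 0.72 to 0.95 for Fezf2 over all alternatives.

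The lateral columns were set against the core in the same way. None of the 4 genes was among the 6 of 15608 genes called (0.0384%), of which 1 was higher (0.00641%) and 5 lower (0.032%). Mef2c and Zbtb18 lay 0.54 ± 0.29 and 0.53 ± 0.45 above the core (SD, n = 3, adjusted p = 0.170 and 0.278 in limma), and Fezf2 and Nfix 0.13 ± 0.26 and 0.13 ± 0.22 (adjusted p = 0.627 and 0.594). The median difference over all genes was 0.01.

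Mef2c averaged 0.16, 0.21 and 0.32 in the lateral columns of datasets 1 to 3, against -0.71, -0.10 and -0.11 in the core. Of 46 lateral arrays, 39 lay above the core median of their dataset. By its value the difference ranked 57th from the highest of all genes, yet by p it ranked 476th. Zbtb18 averaged 0.50, -0.03 and 0.24 in the lateral columns, against -0.03, -0.11 and -0.74 in the core, with 40 of 46 arrays above the core median. Its difference was small in dataset 2 (0.08) and large in dataset 3 (0.99). For Nfix the differences were 0.37, -0.05 and 0.07, and for Fezf2 0.36, -0.15 and 0.17, so neither kept 1 sign as labelled. The lateral zone takes in rows A-B while the core does not, so these differences mix rows with columns. Row D of dataset 2, whose first 7 columns matched the other datasets better in reversed order, touches both zones of this comparison. Without 6 of its arrays the differences were 0.58 for Mef2c (adjusted p = 0.116), 0.58 for Zbtb18 (0.190), 0.12 for Fezf2 (0.653) and 0.13 for Nfix (0.584), and the comparison called 29 genes in place of 6. The rows of the table behind Nfix gave unlike values here, 0.29 ± 0.28 and -0.00 ± 0.18.

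Which member of the lateral zone was high depended on the grid row. Nfix averaged -1.47 ± 0.78 (n = 2 datasets), -0.72 ± 0.19, -0.03 ± 0.14, 0.11 ± 0.21 and 0.38 ± 0.26 in lateral rows A to E (SD, n = 3 from row B on). It thus lay below the core mean in rows A and B and above it in rows C to E. Mef2c spanned a narrower range in the same rows, 0.07 ± 0.57 (n = 2), -0.00 ± 0.08, 0.19 ± 0.26, 0.28 ± 0.18 and 0.42 ± 0.14. Zbtb18 in lateral row E reached 0.57 ± 0.21, close to its mean of 0.66 ± 0.17 in rows F-G. Fezf2 was low in lateral rows A and B, at -0.56 ± 0.40 (n = 2) and -0.66 ± 0.41. With only rows C-E of the lateral columns set against the core, the difference rose to 0.309 for Fezf2 and 0.345 for Nfix. Neither was called, and Mef2c and Zbtb18 kept larger differences.

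Rows F-G and the lateral columns were then compared directly. In limma no gene was called of 15608 (0%), although 948 had an unadjusted p under 0.05, Nfix, Fezf2 and Zbtb18 among them. Nfix lay 0.56, 0.92 and 1.30 higher in rows F-G in datasets 1 to 3, and its mean of 0.93 ± 0.37 was the highest of all genes (unadjusted p = 9.1e-04, adjusted p = 0.787, limma). Fezf2 lay 0.39, 0.90 and 0.59 higher (0.62 ± 0.26, adjusted p = 0.787) and Zbtb18 0.33, 0.52 and 0.40 (0.42 ± 0.10, adjusted p = 0.787). Mef2c differed by 0.03, 0.39 and -0.10, with a mean of 0.11 ± 0.26 (adjusted p = 0.984). Rows F-G and the lateral columns therefore did not differ detectably for Mef2c, and these 3 values do not show that they were equal.

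**Figure D3:**
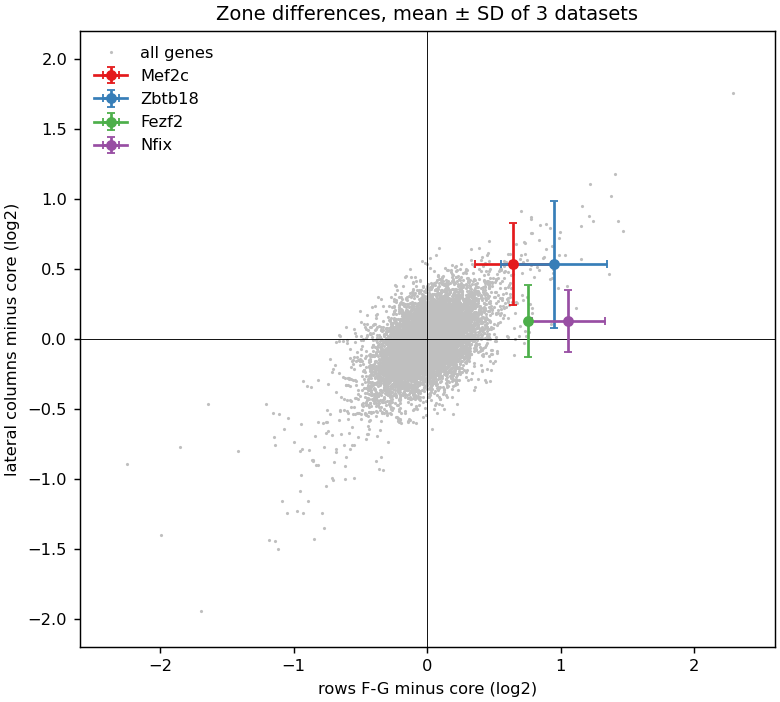
Difference of rows F-G minus core (horizontal, log2) and of lateral columns minus core (vertical, log2) for 15608 genes in grey, with the 4 genes in colour and bars of ± 1 SD over 3 datasets; both axes share the core arrays. Nfix and Fezf2 lie near 0.13 on the vertical axis, and Mef2c and Zbtb18 near 0.54.

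The genes were also compared with each other in the size of the difference between rows F-G and the lateral columns, over all 6 pairs. The order in each of the 3 datasets was Nfix, Fezf2, Zbtb18, Mef2c. The difference of differences was 0.54, 0.52 and 1.40 for Nfix minus Mef2c (0.82 ± 0.50, SD, n = 3) and 0.36, 0.50 and 0.69 for Fezf2 minus Mef2c (0.52 ± 0.16). Neighbours in that order were closer, for example 0.18, 0.02 and 0.71 for Nfix minus Fezf2. Every pair kept 1 sign in 3 of 3 datasets, with an exact sign-flip p of 0.25 (two-sided, adjusted over the 6 pairs 0.25), the smallest that 3 datasets allow. A ratio difference between genes is a difference in how far each varied, not in level.

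Along the rows, the columns 3-9 alone show each gene's profile. Nfix averaged -0.65 ± 0.38, -0.56 ± 0.10, -0.47 ± 0.37, -0.40 ± 0.16, 0.30 ± 0.11, 0.92 ± 0.19 and 0.83 ± 0.06 in rows A to G (SD, n = 3). Zbtb18 averaged -0.68 ± 0.37, -1.17 ± 0.27, -0.60 ± 0.59, -0.36 ± 0.49, 0.09 ± 0.41, 0.64 ± 0.26 and 0.59 ± 0.21. For both genes the mean passed 0 at row E and was highest in row F, but for Zbtb18 the row E mean came from dataset 1 (0.55, against -0.22 and -0.06 in datasets 2 and 3). Fezf2 averaged -0.48 ± 0.51, -0.46 ± 0.50, 0.02 ± 0.15, -0.38 ± 0.31, 0.06 ± 0.30, 0.76 ± 0.38 and 0.71 ± 0.17, with row D below row C. Mef2c averaged -0.39 ± 0.13, -0.52 ± 0.40, -0.23 ± 0.19, -0.27 ± 0.44, -0.42 ± 0.46, 0.13 ± 0.41 and 0.49 ± 0.22. Its row E mean lay below those of rows C and D, and row G was the only row where all 3 datasets were above 0.

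The 4 genes differed in sign in the middle of row E. In columns 5-7 of that row Nfix had 0.49, 0.58 and 0.29 in datasets 1 to 3 and Zbtb18 had 0.79, 0.20 and 0.21. Mef2c had -1.29, -0.61 and -0.26 there, below 0 in each dataset. Fezf2 had -0.64, 0.52 and 0.53, with dataset 1 unlike the others. In the same columns of row C, Nfix (-0.60 ± 0.27) and Zbtb18 (-0.71 ± 0.65) lay below 0, as did Mef2c (-0.39 ± 0.23). These values are descriptions, and the row E positions were singled out after the values were seen.

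From the sides to the middle of rows C-E, the mean of Mef2c over datasets was lower at each step: it averaged 0.45 ± 0.06 in columns 1 and 11, 0.14 ± 0.18 in columns 2 and 10, -0.07 ± 0.39 in columns 3 and 9, -0.31 ± 0.30 in columns 4 and 8, -0.42 ± 0.48 in columns 5 and 7, and -0.55 ± 0.23 in column 6 (SD, n = 3). Within single datasets the decline was not steady: dataset 2 had -0.30 in columns 4 and 8 and -0.01 in columns 5 and 7, dataset 1 had -0.95 in columns 5 and 7 and -0.81 in column 6, and dataset 3 alone fell at each step. Datasets 1 to 3 had 0.41, 0.43 and 0.52 in columns 1 and 11 and -0.81, -0.45 and -0.40 in column 6. Zbtb18 and Nfix instead stood highest 1 column in from the side, at 0.34 ± 0.18 and 0.23 ± 0.10, and had no steady decline from there. Fezf2 averaged 0.21 ± 0.11 and 0.20 ± 0.13 in the outer 2 classes of columns and from -0.24 to -0.01 further in.

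**Figure D4:**
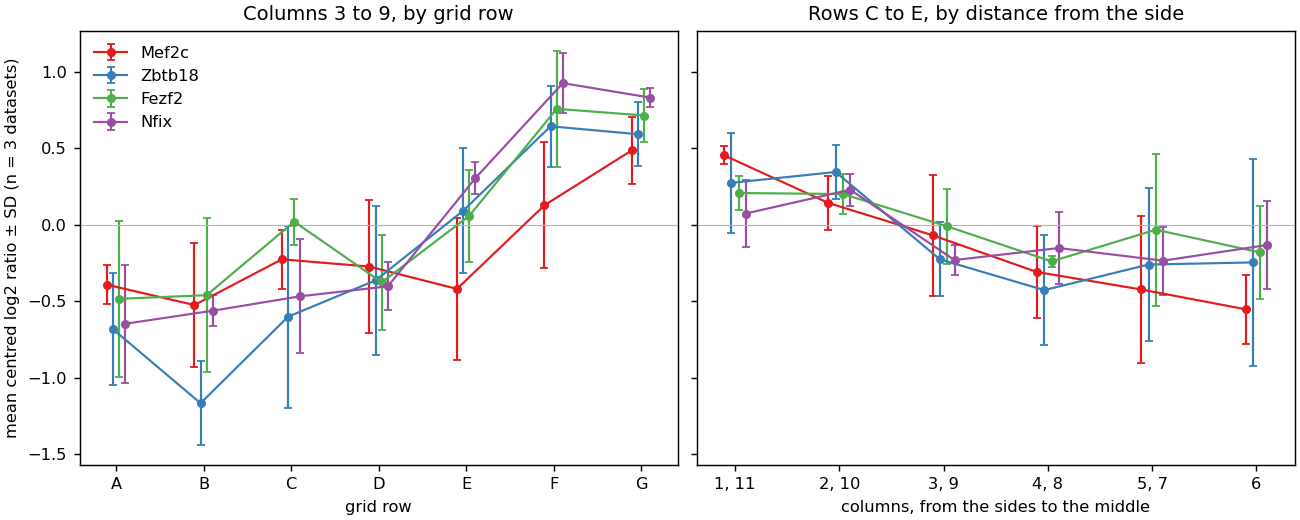
Mean centred log2 ratio ± SD (n = 3 datasets) of the 4 genes by grid row in columns 3 to 9 (left) and by column in rows C to E, from the sides to the middle (right). Mef2c is lowest of the 4 in row E and its mean falls at each step towards column 6, while the means of Nfix and Zbtb18 pass 0 at row E.

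Within rows F-G the middle columns 5-7 were set against the other columns, and no gene of 15607 was called (0%; 734 had an unadjusted p under 0.05). Mef2c had -0.33, -0.31 and -0.13, a mean of -0.26 ± 0.11 (adjusted p = 0.924), while the other 3 genes had means of 0.10 to 0.16. The middle columns of rows A-B against the core gave no called gene either (0% of 15608; 1584 at an unadjusted p under 0.05). There Zbtb18 averaged -0.90 ± 0.32 in rows A-B and -0.29 ± 0.39 in the core, a difference of -0.61 ± 0.46 (adjusted p = 0.445). The difference was -0.39 ± 0.13 for Nfix, -0.35 ± 0.50 for Fezf2 and -0.13 ± 0.18 for Mef2c. Columns 1-5 and columns 7-11 were compared over 22, 29 and 27 mirror pairs of positions, with 0% called (522 at an unadjusted p under 0.05). The 4 differences lay between -0.09 and 0.03, so no side of the grid stood out for any of the genes.

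Marker genes of brain regions and cell types give values to set beside those of the 4 genes. The 7 cortical neuron markers measured, of 24 listed, averaged 0.46 ± 0.14 in rows F-G, 0.23 ± 0.12 in the lateral columns and -0.38 ± 0.21 in the core (SD over 3 datasets). Their median difference between rows F-G and the core was 0.85, and 3 of the 7 were called higher, Vxn by 2.29 ± 0.34, Nrgn (neurogranin) by 1.38 ± 0.42 and Dkk3 (a secreted dickkopf protein) by 1.36 ± 0.39. By the F test, which called 4.92% of all genes, 5 of the 7 were called, among them Slc30a3, a zinc transporter of synaptic vesicles (0.85 ± 0.59 between rows F-G and the core), and Calb1 (calbindin). Calb1 did not share the sign of the others called, with -0.21 ± 0.02 (adjusted p = 0.590).

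Markers of striatum, thalamus, myelin and choroid plexus averaged higher values in the core. The 7 striatal markers averaged -0.29 ± 0.06 in rows F-G and 0.41 ± 0.22 in the core, and 2 were called lower (0.25% of all genes were), Ppp1r1b (DARPP-32) at -1.64 ± 0.31 and Syndig1l at -2.25 ± 0.49. Not every listed gene did so: Arpp19 had 0.42 ± 0.26, Arpp21 0.15 ± 0.04 and Foxp1 -0.01 ± 0.12, none of them called between these zones. The 6 thalamus markers averaged -0.16 ± 0.02 in rows F-G and 0.56 ± 0.32 in the core, with 1 called lower, Tcf7l2. The 4 myelin markers averaged -0.16 ± 0.23 and 0.50 ± 0.07, with Bcas1 called lower, and the 5 choroid plexus markers -0.03 ± 0.15 and 0.51 ± 0.20, with Igf2 called lower. No marker of astrocytes (5 measured), microglia (4), vessels (7), inhibitory neurons (3) or hypothalamus (4) was called in this comparison, and their median differences lay between -0.23 and -0.01. Their part in the differences of the 4 genes was not tested. Array spread differed little, with a median absolute deviation of 0.242 ± 0.028 in rows F-G and 0.279 ± 0.051 in the core.

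A list of other cortical transcription factors was read against the same backgrounds. Of 40 listed beside the 4 genes, 16 were measured, and 6 were called by the F test, which called 4.92% of all genes. These were Egr1, an activity-induced gene (F = 7.53), Nr2f1 (3.69) and Nr2f2 (2.30), which pattern cortical areas, Id2 (3.27), Tshz2 (2.56) and Foxp1 (2.28). In rows F-G against the core, where 0.205% of all genes were called higher, 1 of the 16 was, Egr1, at 1.42 ± 0.27 (adjusted p = 0.0162, limma), and the list's median difference was 0.09, against 0.01 over all genes. Id2 had 0.66 ± 0.11 (adjusted p = 0.0656) and Nr2f1 had 0.46 ± 0.27. Foxp2, with -0.61 ± 0.06 (adjusted p = 0.0742), had the lowest value of the list.

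Among the relatives of the 4 genes 1 was called in any of these tests. Of 10 genes of the MEF2 family and of proteins that act on it (deacetylases, a repressor and kinases), 5 were measured, Mef2a, Mef2d, Hdac5, Cabin1 and Mapk14, and 1 was called by the F test, Mef2a (F = 2.99, adjusted p = 5.8e-06). Mef2a was highest at D6 in the core (0.86), and its difference between rows F-G and the core was -0.41 ± 0.05 (adjusted p = 0.235), opposite in sign to that of Mef2c. Of the nuclear factor I genes, Nfia (F = 0.58, adjusted p = 0.998) and Nfic (F = 1.28, adjusted p = 0.561) were measured beside Nfix, and neither was called. Nfic lay 0.26 ± 0.10 above the core in rows F-G and Nfia at -0.02 ± 0.16. Of 9 other FEZ and ZBTB zinc finger genes, 2 were measured, Zbtb20 and Zbtb17, and none was called in any comparison.

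The genes with maps most like each member were ranked by the mean r of the member in one dataset with the gene in another. The 4 genes resembled each other to different degrees: 0.599 for Zbtb18 with Nfix, 0.520 for Fezf2 with Nfix, 0.421 for Zbtb18 with Fezf2, 0.420 for Mef2c with Zbtb18, 0.371 for Mef2c with Nfix and 0.258 for Mef2c with Fezf2. For Nfix the 5 most alike were Igfbp4 (0.668), Dkk3 (0.660), Zbtb18, Vxn (0.576) and Arc (0.570), an immediate early gene of synapses. For Fezf2 they were Dkk3 (0.534), Nfix, Igfbp4 (0.475), 1110008P14Rik (0.447) and Arc (0.433). Nfix and Fezf2 thus shared Dkk3, Igfbp4 and Arc. For Zbtb18 they were Chn1 (0.650), Rcor3 (0.639), Nrgn (0.636), Egr1 (0.610) and Dkk3 (0.609). For Mef2c they were Gtdc1 (0.531), the chemokine gene Cx3cl1 (0.494), AI848599 (0.489), Nrgn (0.486) and Osbpl1a (0.480). These r values are descriptions across 56 to 65 positions, and positions of one dataset share a harvest and a dye.

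Some arrays stand apart. The first 7 columns of row D in dataset 2 matched the mean of the other datasets better when their order was reversed, at r = 0.568 against -0.634 as labelled for Zbtb18, 0.677 against -0.017 for Nfix, 0.600 against 0.109 for Fezf2 and 0.518 against -0.072 for Mef2c, over 7 positions. The labels were kept. Without 6 of those arrays the difference between rows F-G and the core was 1.04 for Nfix (adjusted p = 0.0270), 0.75 for Fezf2 (0.0282), 0.97 for Zbtb18 (0.0559) and 0.67 for Mef2c (0.134). In dataset 3 the arrays of G8, G3 and G6 had 41.5%, 20.3% and 15.1% of rows missing or at the floor, and without them the same differences were 1.07, 0.74, 0.96 and 0.63. Of the members' own values, Fezf2 was at the floor at B4 of dataset 2, and 1 row of Nfix lacked 3 values in columns 9 and 11 of rows A-B.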

How the data were processed

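Two-colour arrays of voxel against whole brain RNA were analysed from 1 table of log2 ratios that the authors deposited. Per the labels' protocols, Trizol-extracted RNA was copied into cDNA, which was then coupled to the dyes. How the authors scanned the arrays, corrected background and normalized is not given in the sources used here. Rows were named through the platform annotation: 13165 rows had 1 symbol, 317 several and 46 a symbol of another species. Of the rows of deposited log2 ratios, 99.9% had a median within 0.001 of 0, and the lowest value, -6.64, was a floor held by 0.483% of values. A further 1.93% were missing.

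Floor values were treated as not measured, and 20 control rows were left out. The median of an array over the 7961 rows without gaps was subtracted from it. Rows with values on 80% or more of the arrays in every dataset were kept, and rows of 1 symbol were averaged. No 2 arrays correlated above 0.746, so none was taken for a duplicate. Arrays give no read depth, so their number limits the precision.

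limma 3.58.1 in R 4.3.3 was used for the F test over positions and for 6 zone comparisons on 1 difference per dataset, two-sided, with Benjamini-Hochberg adjustment over all genes. The F test and the comparison of rows F-G with the core were also run on simulated independent noise with changes added. That noise had no dataset effect, so it does not show how the tests act on these data. The dataset is the replicate and names an independent harvest, so zones were paired within it. The members, zones and gene lists were chosen with earlier results of these data known. Genes are named where they are members, where a listed gene passed a test, up to 6 a list, or as the 5 most like a member; Foxp2 and the family members below the threshold were named after their values were seen. Alternatives were the floor, centring, quantile normalization, the filter, single rows, limited values, array weights, zone borders, the pairing and leaving out a dataset or single arrays.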

Additional observations from a re-analysis of the deposited data

How the results depend on the processing

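The differences of Nfix, Zbtb18, Fezf2 and Mef2c between rows F-G and the core were above 0 under every alternative run, while their calls and the counts of called genes depended on the setting; the cause was not tested unless named. The F test over positions called 768 genes, and 1161 after quantile normalization, 2573 with array weights, 366 with no replicate block and 214 to 529 without 1 dataset. For rows F-G against the core the count of 71 became 0 with floor values kept, 165 after quantile normalization, 240 among rows measured on every array (fewer genes tested), 14 with no filter, 46 with rows A-B added to the core, 3 with no replicate block, that is without the pairing, and 0 to 43 without 1 dataset. For the lateral columns against the core the count of 6 became 0 with floor values kept, with no filter, with no replicate block and without any 1 dataset, 141 after quantile normalization, 445 among complete rows, 28 with values limited to within 3 of 0, 29 without 6 arrays of row D of dataset 2, and 1 with rows A-B added to the core. For rows F-G against the lateral columns the count of 0 became 3 among complete rows and 0 to 1 without 1 dataset. For rows A-B against the core the count of 0 became 3 without centring, 16 after quantile normalization, 134 among complete rows, 1 with single rows, 1 without the arrays of row D, 3 at positions in all 3 datasets and 0 to 4 without 1 dataset. Within rows F-G the count of 0 became 11 among complete rows.

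With no filter the calls of Fezf2 and Nfix in rows F-G ended (adjusted p = 0.0601 and 0.0586). Zbtb18 passed there after quantile normalization (1.19, adjusted p = 0.0172), among complete rows (2.5e-06) and with rows A-B in the core (0.0288), and Mef2c among complete rows (2.3e-04). Complete rows also called Mef2c and Zbtb18 in the lateral columns against the core (adjusted p = 0.00401 and 0.0222) and Nfix in rows F-G against them (0.0381). Among complete rows, Nfix was tested by only 1 of its 2 rows and Fezf2 not at all. Signs turned for Nfix in the lateral columns with complete or single rows, where the same row gave both values (-0.000527). On leaving out 1 dataset, signs turned for Mef2c in rows F-G against the lateral columns (-0.0389 to 0.208, negative without dataset 2). Between mirror columns, leaving out 1 dataset turned them for Fezf2 (-0.0560 to 0.0255), Zbtb18 (-0.0473 to 0.0533) and Nfix (-0.0790 to 0.104). Alternatives chosen after seeing the data left out the array of C5 in dataset 3 or the arrays of G3, G6 and G8 in dataset 3, each giving 3 calls in rows A-B against the core, or the array of G3 in dataset 2, and they changed no call of the 4 genes.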
